A study of Tupaia belangeri chinensis with 12 samples.

Results

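The genes described here are the collagens, laminins, integrins and matrix proteoglycans of the developing cortex of the Chinese tree shrew (Tupaia belangeri chinensis). They were chosen by symbol: collagen chains (COL), laminin chains (LAM), integrin subunits (ITGA and ITGB), nidogens (NID1, NID2), perlecan (HSPG2), the lecticans brevican, neurocan and versican (BCAN, NCAN, VCAN), lumican (LUM), decorin (DCN), fibulins (FBLN), fibronectin (FN1) and link proteins (HAPLN). The rule met 104 symbols, and the 10 that end in a copy number (such as COL16A1li1) were left out, which left 94 genes of the 81414 in the tables. Of the 94 genes, 2 share only the start of their name with the integrins: ITGB1BP1, whose product binds the cytoplasmic tail of integrin beta 1, and ITGB3BP, which encodes a centromere protein. Their levels are described apart, but both stand in the counts, sums and medians over these genes. LAMB1, ITGA1 and ITGB3 were not analysed here.

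Laminins, type IV collagens, nidogens and perlecan are the building blocks of basement membranes, the sheets that lie under the pia and around vessels in the brain. Integrins are receptors of an alpha and a beta subunit that bind laminins, fibronectin and collagens, and radial glia, the stem cells that span the cortical wall, attach to the pial basement membrane through them. Lecticans are chondroitin sulphate proteoglycans that bind hyaluronan in the matrix between brain cells, where link proteins hold the complex together.

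Polyadenylated RNA was sequenced from 4 layers cut by laser microdissection from Nissl-stained frozen sections of fetal cortex: the cortical plate (CP), where neurons settle, the outer subventricular zone (OSVZ), the inner subventricular zone (ISVZ), and the ventricular zone (VZ), which lines the ventricle. Each layer has 3 libraries, named CP 1 to VZ 3 after the replicate number in their labels. The labels place all of them at embryonic day 37, although the tables are named for day 35, and give no treatment or genotype. Whether replicates are separate animals is not labelled, and p-values cover only the variation among these libraries, part or all of which may be technical.

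Values are FPKM, read fragments scaled for gene length and sequencing depth, as the authors deposited them, scaled here by 1 factor per library (0.947 to 1.06) and called scaled FPKM. Summed FPKM ran from 244666 in OSVZ 1 to 276629 in VZ 2, and 0 pairs of libraries held identical values. Read depth was not recorded in the tables, and the median half-width of the deposited bounds over the matrix and integrin genes was 7.63% to 12.6% of the value. Neuron and radial glia markers set the layers apart: the summed level of 6 neuron markers was 2577 to 3369 scaled FPKM in CP, 1058 to 1420 in OSVZ, 656 to 921 in ISVZ and 394 to 560 in VZ, and that of 7 radial glia markers was 26.8 to 46.3 in CP, 207 to 217 in OSVZ, 304 to 401 in ISVZ and 738 to 864 in VZ. Intermediate progenitor markers (2 found of 3 listed) summed to at most 0.709 in CP. Their sums overlapped among the other layers, at 74.9 to 131 in OSVZ, 66.4 to 154 in ISVZ and 81.0 to 163 in VZ. VZ libraries stood apart from each other in choroid plexus transcripts, with a summed level over the 5 markers found of 6 listed of 560 in VZ 1, 2691 in VZ 2 and 43.7 in VZ 3, against at most 52.3 in any other library. KCNJ13 was the marker not found, and OTX2 was listed at 0 in all 3 CP libraries. The counts of called genes are also given without VZ 1 and VZ 2.

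Most of these genes were highest in VZ and lowest in CP. Of the 94 genes, 42 passed the filter of at least 1 scaled FPKM in at least 3 libraries and were tested. By layer mean, 34 of the 42 were highest in VZ, 4 in OSVZ, 4 in CP and 0 in ISVZ, and 31 were lowest in CP. The order of means was VZ over ISVZ over OSVZ over CP in 18 of them. Layer orders were not counted over all tested genes, so how far they are particular to these genes is not known. The number of the 94 genes that reached 1 scaled FPKM was 20 to 22 in the CP libraries, 27 to 35 in OSVZ, 26 to 31 in ISVZ and 39 to 46 in VZ. Over all genes, 12157 to 12280 reached 1 FPKM as deposited in the CP libraries and 12924 to 13417 in VZ. OSVZ had 12741 to 13301 such genes and ISVZ 12510 to 12876. The summed level of the 94 genes was 180 to 209 scaled FPKM in CP, 258 to 286 in OSVZ, 245 to 284 in ISVZ and 365 to 477 in VZ. Radial glia markers were also lowest in CP and highest in VZ, and neuron markers the reverse, as given above. Between ISVZ and OSVZ the sums of the 94 genes overlapped, whereas radial glia markers were higher in ISVZ. Meningeal and fibroblast markers, of cells that make much matrix, were also lowest in CP and highest in VZ, with a summed level over the 7 found of 9 used of 0.787 to 1.68 scaled FPKM in CP, 2.39 to 3.19 in OSVZ, 2.69 to 3.95 in ISVZ and 7.02 to 8.97 in VZ. Markers of mural cells had a summed level over 8 markers of 11.7 to 16.6 scaled FPKM in CP, 25.6 to 27.8 in OSVZ, 23.5 to 31.8 in ISVZ and 32.1 to 39.0 in VZ. The 8 microglia markers summed to 3.17 to 6.37 in CP, at least 28.3 in OSVZ, 10.8 to 24.1 in ISVZ and 25.8 to 33.8 in VZ. Their part in the layer differences was not tested. In tissue samples, fewer cells of a type and less RNA per cell cannot be told apart. Of the tested genes, 3 (COL4A6, FBLN2 and ITGA5) reached 1 scaled FPKM in VZ alone. Others, among them COL4A5, LAMB2, COL11A1, HAPLN1 and COL12A1, reached it in fewer than 3 libraries outside VZ. All of these passed the filter through VZ. ITGB5, ITGA7, LAMA1, LAMA5, LAMC3, HSPG2 and COL6A2, among others, were under 1 in every CP library and passed it through OSVZ, ISVZ and VZ. LUM reached 1 outside CP only in VZ 1 and VZ 2 and passed it through CP. Counts over the tested genes are therefore a description and carry no test.

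**Figure D1:**
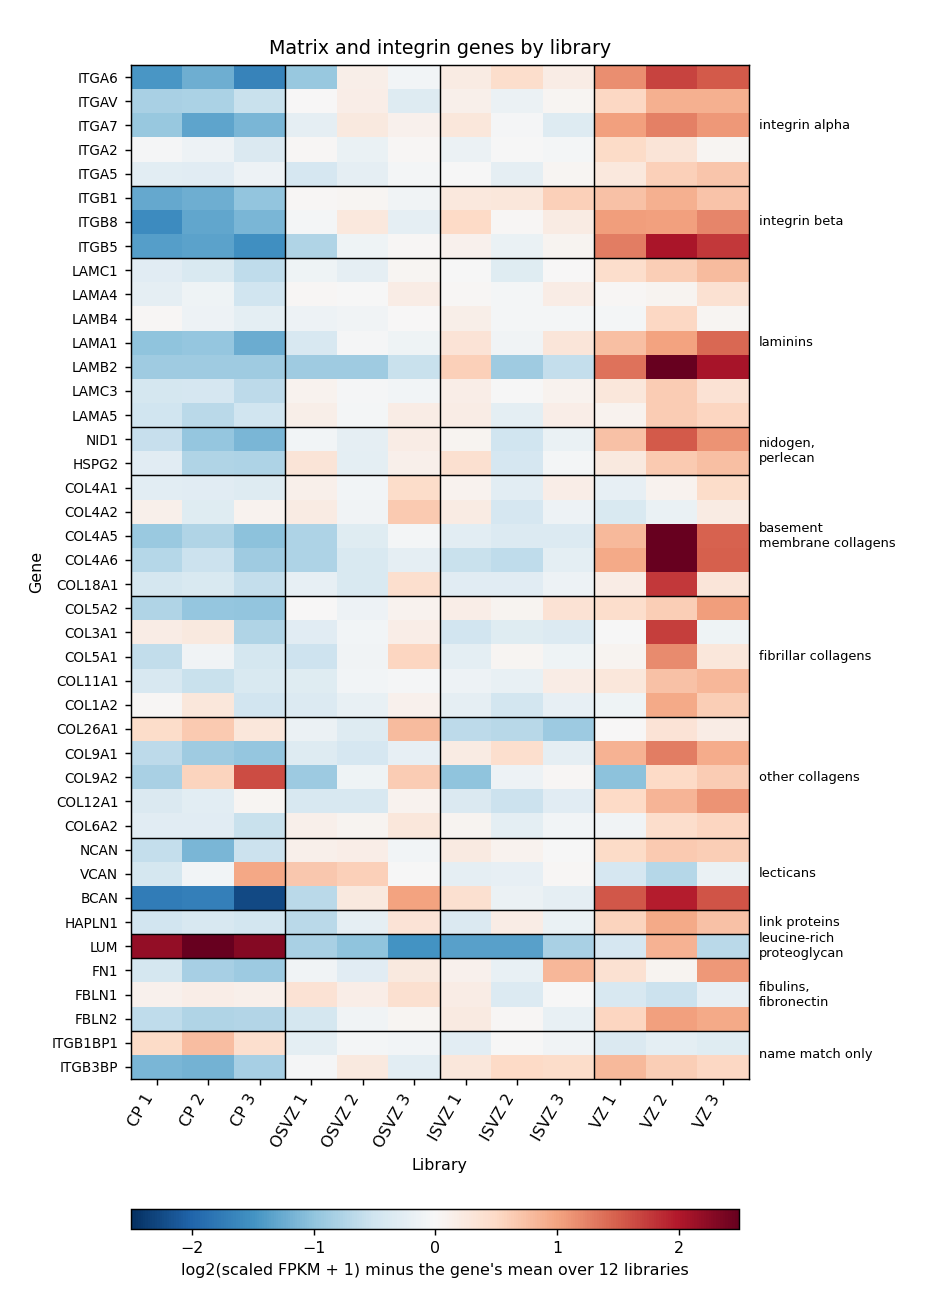
Each row is 1 of the 42 tested genes, grouped by role, and each column 1 library (3 each of CP, OSVZ, ISVZ and VZ). Colour gives log2(scaled FPKM + 1) minus the gene's mean over the 12 libraries. VZ columns are red for most genes and CP columns blue, with LUM and ITGB1BP1 red in CP, and VZ 2 is the highest library for 20 of the 42 genes.

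The tests are contrasts of 1 limma model on log2(scaled FPKM + 1), adjusted over 14101 genes, and each difference below is on that scale, as log2 ± SE. Over the 4 layers, 31 of the 42 genes passed the F test at an adjusted p of 0.05, against 51.8% of all tested genes. In CP minus the mean of the 3 germinal layers (OSVZ, ISVZ and VZ), 27 were lower in CP and 3 higher, where 52.7% of all tested genes passed, 28.7% lower and 24.0% higher. The median difference over the 42 genes was -0.65, beside -0.05 over all tested genes. In CP minus OSVZ, 17 were lower and 2 higher (31.0% of all tested genes passed, 17.3% lower and 13.7% higher). In OSVZ minus VZ, 24 were lower in OSVZ and 1 higher (27.9% of all, 16.2% lower and 11.7% higher), with a median of -0.71 over the 42 genes and -0.02 over all. In ISVZ minus VZ, 17 were lower in ISVZ and 0 higher (8.72% of all, 7.18% lower and 1.54% higher). In OSVZ minus ISVZ, limma called 0 of the 42 genes (0.603% of all), and 6 had an unadjusted p under 0.05. The counts include the 2 genes that match by name only. ITGB1BP1 is among those higher in both CP contrasts, and ITGB3BP among those lower in both and in OSVZ minus VZ. These comparisons share libraries, so their counts are not independent.

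The ISVZ minus VZ count of the 42 genes was the one most dependent on single libraries. It was 9 without ISVZ 2 (3.67% of all genes in that fit), 7 without VZ 2 (2.81%) and 9 without VZ 3 (4.23%). The share of all genes fell too, from 8.72% with all libraries. Without VZ 1 and VZ 2 together, 11 genes were called in OSVZ minus VZ (8.57% of all genes in that fit) and 2 in ISVZ minus VZ (0.519% of all), of 34 that then passed the filter, with the lone VZ library assumed to vary like the other layers. In the same fit, 23 genes passed the F test (40.5% of all), 24 passed in CP against the germinal layers (48.0%) and 18 in CP minus OSVZ (29.3%). With VZ 3 as the only VZ library, 34 of the 42 genes had their highest layer mean in VZ, a count not made over all tested genes. The 42 genes were filtered with VZ 1 and VZ 2 included, so this count is not free of those 2 libraries. Of the calls above, 23 of 30 in CP against the germinal layers, 13 of 19 in CP minus OSVZ, 17 of 25 in OSVZ minus VZ and 5 of 17 in ISVZ minus VZ held in every alternative that could be run for the gene. These counts include genes that passed the filter only through the layers where they were high and for which they are no support. Among them are FBLN2, COL4A5, LAMB2, ITGB5, ITGA7, LAMA1, LAMA5, LAMC3, HSPG2 and LUM in the first. In CP minus OSVZ they are ITGB5, ITGA7, LAMA1 and LUM. In OSVZ minus VZ they are COL4A5, COL4A6, COL11A1, COL12A1, LAMB2, FBLN2 and ITGA5, and in ISVZ minus VZ COL4A5, COL4A6, COL12A1 and LAMB2. With VZ 3 as the only VZ library, OSVZ minus VZ differences ran from -2.05 (ITGB5) to -0.72 (ITGB1) over 11 genes. These were ITGB1, ITGB5, ITGB8, ITGA6, ITGAV, LAMA1, LAMC1, NID1, COL5A2, COL9A1 and COL12A1. ISVZ minus VZ was -1.77 for ITGB5 and -1.52 for COL12A1. COL12A1 then passed the filter only with VZ 3, so its differences, counted above, are a description and not a test. Of the other 14 genes called in OSVZ minus VZ with all libraries, 8 stayed above the filter in that fit. The other 6 were below it (COL4A5, COL4A6, COL11A1, LAMB2, FBLN2 and ITGA5). Differences of the 8, each with VZ 3 alone and then with all libraries, were -1.05 and -1.08 for ITGA7, -0.54 and -0.51 for NCAN, -1.38 and -1.50 for BCAN and -0.92 and -0.94 for HAPLN1. They were -0.37 and -0.43 for LAMC3, -0.43 and -1.02 for LUM, 0.51 and 0.69 for FBLN1 and -0.54 and -0.66 for ITGB3BP.

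**Figure D2:**
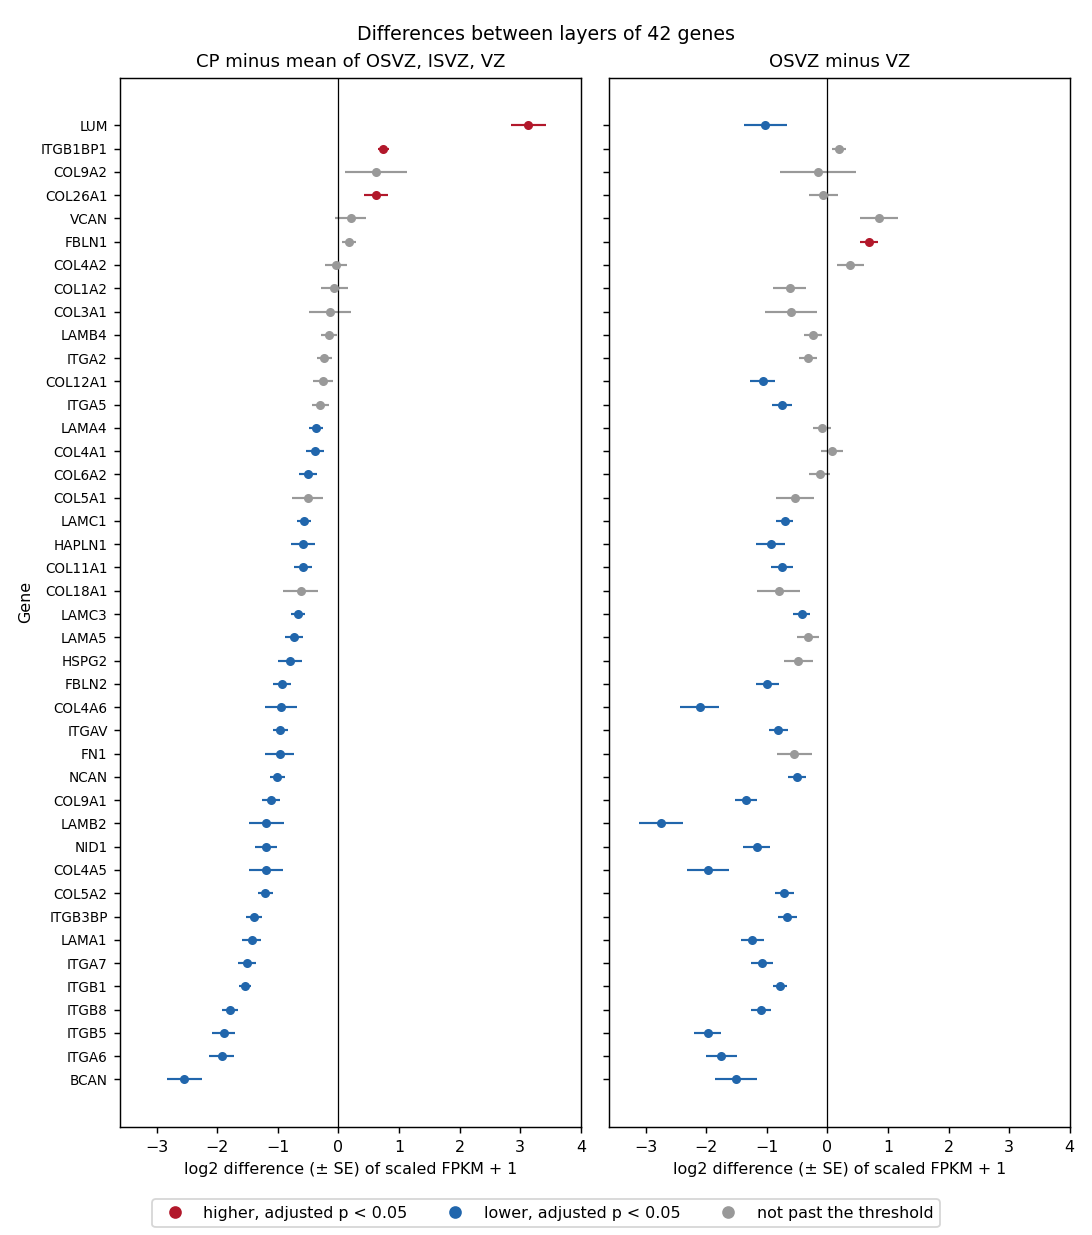
Points are log2 differences of scaled FPKM + 1 with bars of 1 SE for the 42 genes, on the left CP minus the mean of OSVZ, ISVZ and VZ and on the right OSVZ minus VZ, in the same gene order. Blue genes were lower and red genes higher at an adjusted p under 0.05, and LUM lies at 3.13 on the left and BCAN at -2.54.

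Of the 7 integrin beta subunits among the genes, 3 were tested, and all 3 were lower in CP than in the germinal layers, lower in CP than in OSVZ and lower in OSVZ than in VZ. ITGB1, the beta subunit shared by most laminin, collagen and fibronectin receptors, was the most abundant of the 94 genes by mean level. It had 21.3, 22.2 and 26.2 scaled FPKM in CP and 54.0, 54.5 and 49.9 in OSVZ. ISVZ had 63.7, 64.1 and 80.3, and VZ 88.3, 98.6 and 87.8. The 4 layers did not overlap, and levels stepped down from VZ through ISVZ and OSVZ to CP. Its difference between CP and the germinal layers was -1.54 ± 0.10 (adjusted p = 3.18e-07), and OSVZ minus VZ was -0.78 ± 0.12 (adjusted p = 0.000806). The steps between neighbouring germinal layers did not pass, at -0.38 ± 0.12 (adjusted p = 0.106) for OSVZ minus ISVZ and -0.40 ± 0.12 (adjusted p = 0.0560) for ISVZ minus VZ.

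ITGB8, which pairs with alpha V and activates latent TGF-beta, had 0.927, 1.31 and 1.57 scaled FPKM in CP and 4.52, 5.86 and 3.88 in OSVZ. ISVZ had 7.11, 4.84 and 5.58, and VZ 10.7, 10.7 and 12.3. VZ libraries were above all others and CP libraries below all others, with -1.79 ± 0.14 (adjusted p = 1.38e-06) for CP against the germinal layers and -1.10 ± 0.17 (adjusted p = 0.000876) for OSVZ minus VZ. ISVZ minus VZ was -0.85 ± 0.17 (adjusted p = 0.0104), with an adjusted p of 0.0523 without ISVZ 2. ITGB5, another partner of alpha V that binds vitronectin, had 0.253, 0.289 and 0.127 scaled FPKM in CP and 0.941, 2.03 and 2.34 in OSVZ. ISVZ had 2.54, 1.91 and 2.42, and VZ 7.00, 12.4 and 10.2. No CP library came near the germinal layers, and the 3 VZ libraries stood clear of the rest. CP against the germinal layers was -1.90 ± 0.18, a description and not a test, since ITGB5 passed the filter through the germinal layers. OSVZ minus VZ was -1.98 ± 0.22 (adjusted p = 0.000246) and ISVZ minus VZ -1.70 ± 0.22 (adjusted p = 0.00251). Both of these calls held without any 1 library. The ITGB5 interval overlaps UMPS, at a mean of 7.90 scaled FPKM, and the division of reads between the 2 genes is uncertain. ITGB2, ITGB4, ITGB6 and ITGB7 were below the filter, and ITGB4 reached at most 1.10 scaled FPKM in any library.

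Of 12 integrin alpha subunits, 5 were tested, and 3 of them were lower in CP than in the germinal layers and 4 lower in OSVZ than in VZ. ITGA6, a laminin receptor subunit that pairs with beta 1 and is used as a neural stem cell marker, had 1.05, 1.40 and 0.759 scaled FPKM in CP and 1.90, 5.20 and 4.35 in OSVZ. ISVZ had 5.46, 6.54 and 5.36, and VZ 11.5, 17.1 and 15.2. VZ was above every other library, and OSVZ 1 was low beside OSVZ 2 and OSVZ 3. CP against the germinal layers was -1.93 ± 0.21 (adjusted p = 1.73e-05), OSVZ minus VZ -1.75 ± 0.25 (adjusted p = 0.000685) and ISVZ minus VZ -1.19 ± 0.25 (adjusted p = 0.0153). The ISVZ call was lost without VZ 2 (adjusted p = 0.0794) and without VZ 3 (adjusted p = 0.0591).

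ITGAV, the alpha subunit shared by receptors of vitronectin and fibronectin, had 1.76, 1.79 and 2.26 scaled FPKM in CP and 3.85, 4.43 and 2.83 in OSVZ. ISVZ had 4.29, 3.35 and 3.95, and VZ 5.86, 7.89 and 7.90. CP lay below and VZ above the other layers, with -0.96 ± 0.13 (adjusted p = 9.54e-05) for CP against the germinal layers and -0.81 ± 0.16 (adjusted p = 0.00344) for OSVZ minus VZ. ISVZ minus VZ, at -0.75 ± 0.16 (adjusted p = 0.0149), was lost without ISVZ 2 (adjusted p = 0.0693), VZ 2 (0.0775) or VZ 3 (0.0649). ITGA7, a laminin receptor subunit best known from muscle, had 0.503, 0.164 and 0.307 scaled FPKM in CP and 1.48, 2.44 and 2.11 in OSVZ. ISVZ had 2.50, 1.83 and 1.31, and VZ 4.92, 5.90 and 5.17. The VZ libraries were above, and the CP libraries below, all of OSVZ and ISVZ. The differences were -1.08 ± 0.18 (adjusted p = 0.00148) for OSVZ minus VZ and -1.15 ± 0.18 (adjusted p = 0.00392) for ISVZ minus VZ. CP against the germinal layers was -1.52 ± 0.15, a description and not a test, since ITGA7 passed the filter through the germinal layers. ITGA5, the fibronectin receptor subunit that pairs with beta 1, was low, with 0.446, 0.430 and 0.591 scaled FPKM in CP and 0.302, 0.482 and 0.674 in OSVZ. ISVZ had 0.727, 0.487 and 0.796, and VZ 1.07, 1.63 and 1.79. Since it passed the filter only through VZ, its OSVZ minus VZ difference of -0.75 ± 0.16 is a description and not a test. ITGA2, a collagen receptor subunit, lay between 0.786 and 2.20 scaled FPKM and passed no test. ITGA3, another laminin-binding partner of beta 1, known from migrating neurons in mice, was below the filter, reaching 2.43 scaled FPKM in OSVZ 3 and staying under 1 elsewhere.

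**Figure D3:**
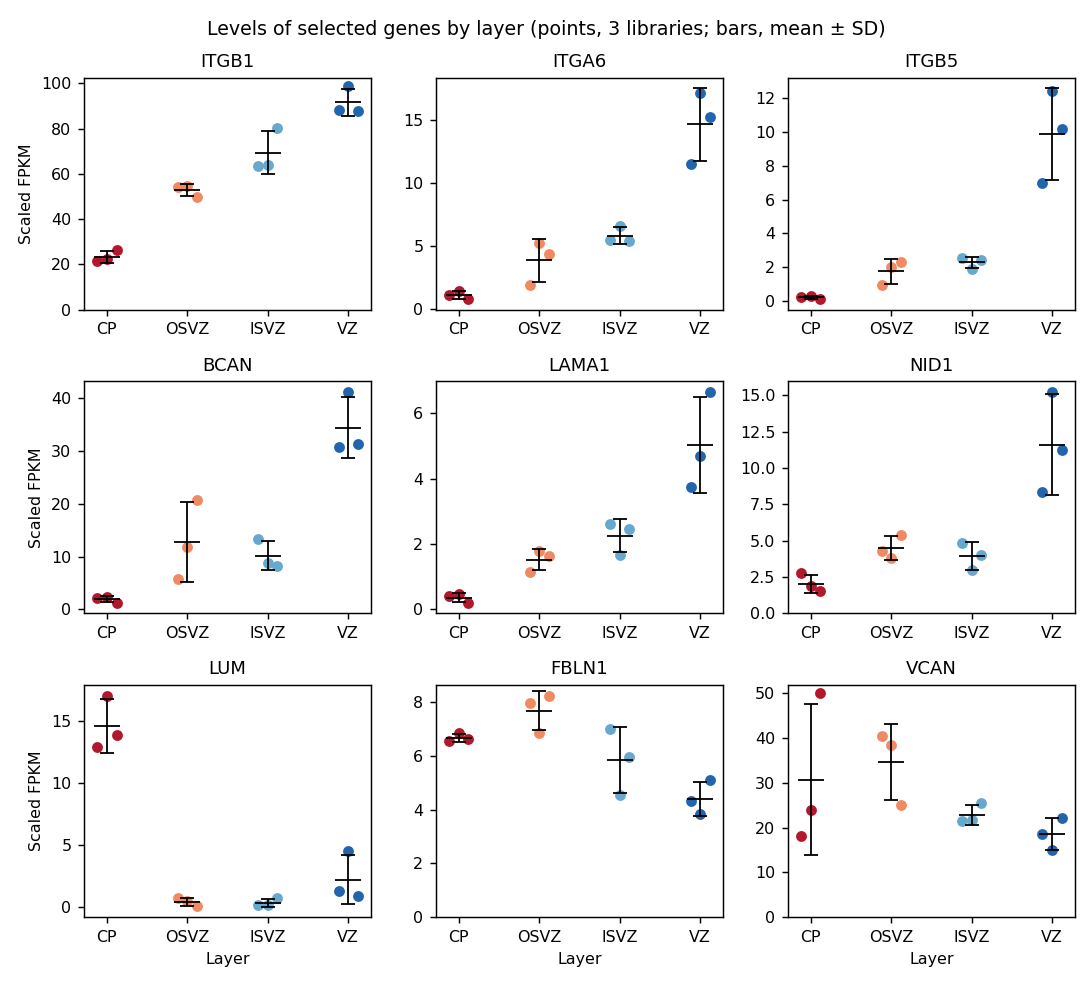
Scaled FPKM of 9 genes in CP, OSVZ, ISVZ and VZ, with points for the 3 libraries of a layer and bars for mean ± SD. ITGB1 averages 23.2 in CP and 91.6 in VZ and LUM 14.6 in CP and 2.23 in VZ, while VCAN spreads from 18.2 to 49.9 within CP.

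Of 11 laminin chains, 7 were tested, and 6 were lower in CP than in the germinal layers. LAMC1, the gamma chain common to most laminins, was the most abundant of them, with 4.55, 4.15 and 3.35 scaled FPKM in CP and 5.28, 4.76 and 5.99 in OSVZ. ISVZ had 5.71, 4.42 and 5.80, and VZ 8.08, 9.34 and 10.7. VZ stood above the other layers, and OSVZ and ISVZ overlapped. OSVZ minus VZ was -0.71 ± 0.14 (adjusted p = 0.00402), and ISVZ minus VZ was -0.72 ± 0.14 (adjusted p = 0.0112), which was lost without ISVZ 2 (adjusted p = 0.0537), VZ 2 (0.0520) or VZ 3 (0.0530). LAMA1, the alpha chain of the first laminin of the embryo and of the pial basement membrane, had 0.401, 0.452 and 0.195 scaled FPKM in CP and 1.15, 1.77 and 1.64 in OSVZ. ISVZ had 2.60, 1.67 and 2.47, and VZ 3.76, 4.69 and 6.66. Its CP libraries were below all others and its VZ libraries above them, with -1.24 ± 0.19 (adjusted p = 0.00104) for OSVZ minus VZ. CP against the germinal layers was -1.43 ± 0.16, a description and not a test, since LAMA1 passed the filter through the germinal layers. ISVZ minus VZ, at -0.88 ± 0.19 (adjusted p = 0.0179), was lost without ISVZ 2 (adjusted p = 0.0833), VZ 2 (0.0675) or VZ 3 (0.0739).

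LAMA4, an alpha chain of vessel laminins, had 2.02, 2.27 and 1.48 scaled FPKM in CP and 2.57, 2.51 and 2.98 in OSVZ. ISVZ had 2.58, 2.40 and 3.02, and VZ 2.60, 2.67 and 3.58. The germinal layers overlapped, and CP was lower by a call (-0.37 ± 0.12, adjusted p = 0.0208) that was lost without CP 3 (adjusted p = 0.123) and after quantile normalisation (-0.21, adjusted p = 0.151). Endothelial markers had a like layout, with a summed level of 12.8 to 23.1 scaled FPKM in CP, 27.1 to 33.7 in OSVZ, 23.4 to 30.8 in ISVZ and 24.8 to 30.6 in VZ over 10 markers, and their part in the LAMA4 difference was not tested. LAMA5 and LAMC3, chains of other basement membrane laminins, differed by -0.74 ± 0.15 and -0.67 ± 0.12 between CP and the germinal layers. Mean levels were 0.255 scaled FPKM in CP and 1.49 in VZ for LAMA5 and 0.359 in CP and 1.59 in VZ for LAMC3. Both passed the filter through the germinal layers, so these differences are a description and not a test. LAMB4 lay between 1.80 and 3.73 scaled FPKM in all libraries and passed no test, and its interval overlaps DLD at a mean of 32.4 scaled FPKM.

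LAMB2, the beta chain of synaptic and vessel laminins, was under 0.001 scaled FPKM in 6 libraries, among them all 3 of CP. The others were 0.263 in OSVZ 3, 1.79 and 0.223 in ISVZ 1 and ISVZ 3, and 3.76, 9.42 and 6.73 in VZ. Outside VZ it reached 1 scaled FPKM in ISVZ 1 alone and so passed the filter through VZ. Its OSVZ minus VZ difference of -2.75 ± 0.36 is a description and not a test. Values this close to 0 beside 1.79 in the same layer may be failed estimates. Its interval overlaps USP19, at a mean of 10.4 scaled FPKM, and no fold is given.

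NID1, the nidogen that links laminin to type IV collagen, had 2.75, 1.86 and 1.54 scaled FPKM in CP and 4.31, 3.80 and 5.37 in OSVZ. ISVZ had 4.86, 2.96 and 4.01, and VZ 8.32, 15.3 and 11.2. VZ was above the other layers in all 3 libraries and CP below them, with -1.20 ± 0.18 (adjusted p = 0.000234) for CP against the germinal layers, -1.17 ± 0.22 (adjusted p = 0.00308) for OSVZ minus VZ and -1.33 ± 0.22 (adjusted p = 0.00521) for ISVZ minus VZ. CP minus OSVZ, at -0.86 ± 0.22 (adjusted p = 0.0140), was lost without CP 3 (adjusted p = 0.0508). NID2 was below the filter, at most 1.94 scaled FPKM, in VZ 2. Perlecan, HSPG2, a heparan sulphate proteoglycan of basement membranes, had 0.909, 0.383 and 0.362 scaled FPKM in CP and 1.92, 0.975 and 1.55 in OSVZ. ISVZ had 2.06, 0.735 and 1.24, and VZ 1.77, 2.68 and 2.91. Layers overlapped for HSPG2, and CP against the germinal layers was -0.80 ± 0.20. That difference is a description and not a test, since HSPG2 passed the filter through the germinal layers, and no other contrast passed.

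Of 8 basement membrane collagens, 5 were tested, and they split into a level pair and a VZ pair. COL4A1, a chain of the type IV collagen found in all basement membranes, had 9.15, 9.07 and 8.77 scaled FPKM in CP and 12.4, 10.7 and 15.9 in OSVZ. ISVZ had 12.1, 9.23 and 12.7, and VZ 9.56, 11.9 and 15.8. COL4A2, the other chain of that collagen, had 11.5, 8.35 and 11.2 scaled FPKM in CP and 12.3, 9.93 and 17.1 in OSVZ. ISVZ had 12.3, 7.57 and 9.63, and VZ 7.88, 9.33 and 12.2. Neither passed in OSVZ minus VZ, at 0.07 ± 0.18 (adjusted p = 0.806) and 0.37 ± 0.22 (adjusted p = 0.244), and COL4A2 did not pass in CP against the germinal layers (-0.05 ± 0.18, adjusted p = 0.848). COL4A1 was lower in CP than in the germinal layers, at -0.39 ± 0.15 (adjusted p = 0.0468), a call lost without any 1 of CP 1, CP 2, CP 3, OSVZ 1, OSVZ 3, ISVZ 1, ISVZ 3, VZ 2 or VZ 3 (adjusted p = 0.0590 to 0.121).

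COL4A5 and COL4A6, the chains of a type IV collagen of more restricted basement membranes, were low outside VZ. COL4A5 had 0.0982, 0.234 and 0.0273 scaled FPKM in CP and 0.211, 0.683 and 1.00 in OSVZ. ISVZ had 0.728, 0.640 and 0.633, and VZ 2.64, 10.9 and 4.77. COL4A6 had 0.211, 0.368 and 0.0670 scaled FPKM in CP and 0.157, 0.518 and 0.708 in OSVZ. ISVZ had 0.351, 0.283 and 0.683, and VZ 2.83, 10.3 and 4.59. In both genes every VZ library lay above every library of the other layers, and VZ 2 was highest, with VZ 1 lowest of VZ. Outside VZ, COL4A5 reached 1 scaled FPKM in OSVZ 3 alone, at 1.00, and so passed the filter through VZ. Its differences of -1.98 ± 0.34 for OSVZ minus VZ and -1.92 ± 0.34 for ISVZ minus VZ are a description and not a test. COL4A6 passed the filter only through VZ, where it is high, so its differences of -2.11 ± 0.32 for OSVZ minus VZ and -2.12 ± 0.32 for ISVZ minus VZ are a description and not a test. It falls below the filter where any VZ library is left out, and both genes do without VZ 1 and VZ 2. Choroid plexus markers were also highest in VZ 2 but higher in VZ 1 than in VZ 3, and their part in the difference was not tested. COL18A1, whose C-terminal fragment is endostatin, had 0.626, 0.695 and 0.445 scaled FPKM in CP and 0.894, 0.696 and 1.94 in OSVZ, 0.814, 0.810 and 1.00 in ISVZ and 1.50, 6.48 and 1.70 in VZ, and passed no contrast, with VZ 2 alone above 2.

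Both pairs are neighbours in the deposited coordinates, whose genome build is not given in the sources used here. COL4A2 lies at chromosome 9, 52990169 to 53157387, and COL4A1 starts 5 bases beyond, at 53157393, and ends at 53307054. COL4A6 lies at chromosome 3, 84269316 to 84526566, and COL4A5, at 84527590 to 84677147, is 1023 bases away. Such side-by-side pairs of type IV collagen genes are known in mammals. Other neighbours had less equal mean levels. COL3A1 and COL5A2, 15629 bases apart on chromosome 1, averaged 1.60 and 3.02 scaled FPKM over the 12 libraries, HAPLN1 and VCAN, 66132 bases apart on chromosome 11, averaged 0.941 and 26.7, and BCAN and HAPLN2, 6480 bases apart on chromosome 8, averaged 14.8 and 0.00698. LUM and DCN overlap on chromosome 7, and HAPLN4 lies within the NCAN interval on chromosome 28.

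**Figure D4:**
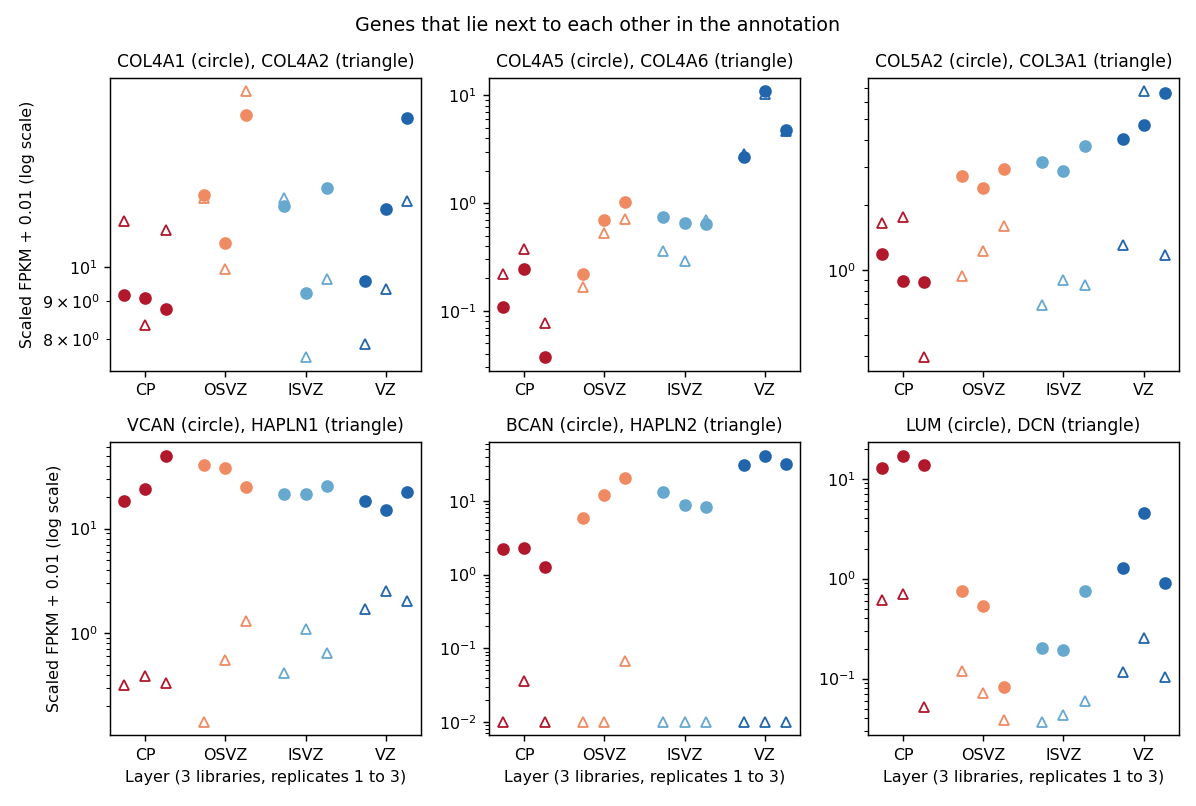
Scaled FPKM + 0.01 on a log axis for 6 neighbouring pairs of genes in CP, OSVZ, ISVZ and VZ (3 libraries each, circles for the first gene, triangles for the second). COL4A5 and COL4A6 are both highest in VZ and reach 10.9 and 10.3 in VZ 2, whereas LUM at 17.0 in CP 2 is far above DCN at 0.696.

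Of 11 fibrillar collagen chains, 5 were tested. COL5A2, a chain of type V collagen that sits inside type I fibrils, had 1.18, 0.888 and 0.874 scaled FPKM in CP and 2.73, 2.39 and 2.95 in OSVZ. ISVZ had 3.17, 2.88 and 3.75, and VZ 4.04, 4.70 and 6.65. CP was below every germinal library and VZ above every other, and ISVZ and OSVZ overlapped. Its differences were -1.20 ± 0.13 (adjusted p = 1.84e-05) for CP against the germinal layers and -0.71 ± 0.16 (adjusted p = 0.00688) for OSVZ minus VZ. COL11A1, a chain of type XI collagen of cartilage and of other tissues, was lower, with 0.344, 0.207 and 0.366 scaled FPKM in CP and 0.428, 0.681 and 0.745 in OSVZ. ISVZ had 0.624, 0.552 and 1.02, and VZ 1.17, 1.96 and 2.14. Outside VZ it reached 1 scaled FPKM in ISVZ 3 alone and so passed the filter through VZ, and its differences are a description and not a test. They were -0.59 ± 0.15 for CP against the germinal layers and -0.76 ± 0.18 for OSVZ minus VZ. After quantile normalisation the first was -0.28. The COL11A1 interval overlaps RNPC3, at a mean of 4.93 scaled FPKM. COL3A1, a chain of vessel and skin collagen, had 1.65, 1.75 and 0.387 scaled FPKM in CP and 0.929, 1.22 and 1.60 in OSVZ. ISVZ had 0.684, 0.898 and 0.845, and VZ 1.31, 6.76 and 1.17. Its VZ 2 value stood far above VZ 1 and VZ 3, and no contrast passed. COL5A1 and COL1A2 likewise passed none, and COL2A1, with 3.90 scaled FPKM in 1 VZ library, and COL1A1, at a mean of 0.199, were below the filter.

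Of the 26 other collagens, 21 were below the filter and 5 were tested. COL26A1 had 8.55, 9.85 and 7.43 scaled FPKM in CP and 5.29, 4.55 and 11.0 in OSVZ. ISVZ had 3.43, 3.28 and 2.72, and VZ 5.97, 7.82 and 6.85. ISVZ was the lowest layer, CP the highest by mean, and OSVZ 3 stood above the other OSVZ libraries. CP against the germinal layers was 0.62 ± 0.20 (adjusted p = 0.0204), lost without CP 1 (adjusted p = 0.0587) or CP 2 (0.0940), and ISVZ minus VZ was -0.92 ± 0.24 (adjusted p = 0.0367), lost without CP 1, any ISVZ library, VZ 2 or VZ 3 (0.0516 to 0.155). Its OSVZ minus ISVZ difference, 0.86 ± 0.24 (adjusted p = 0.0841), was the largest of the 42 genes in that contrast and did not pass, although the 3 OSVZ libraries lay above the 3 ISVZ libraries.

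COL9A1, a chain of type IX collagen of cartilage and eye, had 1.35, 0.990 and 0.909 scaled FPKM in CP and 1.97, 1.76 and 2.20 in OSVZ. ISVZ had 3.28, 3.97 and 2.16, and VZ 5.75, 8.04 and 6.03. VZ was clear of all other layers, with -1.34 ± 0.18 (adjusted p = 0.000458) for OSVZ minus VZ and -1.12 ± 0.15 (adjusted p = 7.47e-05) for CP against the germinal layers. Its CP minus OSVZ call (-0.52 ± 0.18, adjusted p = 0.0472) was lost without any 1 of CP 2, CP 3, OSVZ 1, OSVZ 2, OSVZ 3, ISVZ 1, VZ 1 or VZ 3 (adjusted p = 0.0520 to 0.124). COL12A1, a collagen on the surface of fibrils, had 0.775, 0.914 and 1.37 scaled FPKM in CP and 0.736, 0.728 and 1.43 in OSVZ. ISVZ had 0.789, 0.572 and 0.893, and VZ 2.26, 3.13 and 4.02. Here VZ was the layer apart, and CP, OSVZ and ISVZ overlapped. OSVZ minus VZ was -1.07 ± 0.20 and ISVZ minus VZ -1.22 ± 0.20. Both are a description and not a test, since COL12A1 reached 1 scaled FPKM outside VZ only in CP 3 and OSVZ 3. Its CP against germinal difference did not pass (-0.26 ± 0.16, adjusted p = 0.206). COL9A2, another type IX chain, had 0.431, 2.68 and 6.77 scaled FPKM in CP and 0.341, 1.33 and 2.87 in OSVZ. ISVZ had 0.242, 1.28 and 1.56, and VZ 0.222, 2.52 and 2.89. Replicate 1 was the lowest and replicate 3 the highest library in each of the 4 layers, and no contrast passed. COL6A2, a chain of the beaded type VI collagen, differed by -0.50 ± 0.15 between CP and the germinal layers, and by -0.24 after quantile normalisation. It passed the filter through the germinal layers, so these differences are a description and not a test.

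All 3 lecticans were tested, and each had its own layout. BCAN, brevican, a lectican that glial cells make, had 2.23, 2.29 and 1.26 scaled FPKM in CP and 5.78, 11.8 and 20.7 in OSVZ. ISVZ had 13.3, 8.81 and 8.30, and VZ 30.7, 41.1 and 31.3. VZ was above all other libraries and CP below them, while the 3 OSVZ values covered those of ISVZ. CP against the germinal layers, at -2.54 ± 0.28 (adjusted p = 2.33e-05), was the most negative difference of the 42 genes, CP minus OSVZ was -2.10 ± 0.35 (adjusted p = 0.00114) and OSVZ minus VZ was -1.50 ± 0.35 (adjusted p = 0.00805). The CP calls held in every alternative, with log2 differences of -3.00 to -2.37 for CP against the germinal layers. ISVZ minus VZ (-1.68 ± 0.35, adjusted p = 0.0132) was lost without ISVZ 2 (adjusted p = 0.0586) or VZ 2 (0.0712), and OSVZ minus VZ was lost without VZ 1 and VZ 2 together (0.135).

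NCAN, neurocan, a lectican of the developing brain, had 27.3, 18.3 and 28.2 scaled FPKM in CP and 45.7, 46.5 and 39.5 in OSVZ. ISVZ had 49.0, 44.6 and 41.6, and VZ 58.2, 65.7 and 64.2. The span was narrower than for BCAN, with CP lowest and VZ highest in every library, at -1.01 ± 0.12 (adjusted p = 4.21e-05) for CP against the germinal layers. OSVZ minus VZ (-0.51 ± 0.15, adjusted p = 0.0270) was lost without OSVZ 1 (adjusted p = 0.0520), OSVZ 3 (0.0891), VZ 2 (0.0897) or VZ 3 (0.0759). VCAN, versican, had 18.2, 23.9 and 49.9 scaled FPKM in CP and 40.5, 38.3 and 25.0 in OSVZ. ISVZ had 21.4, 21.6 and 25.5, and VZ 18.6, 14.9 and 22.2. OSVZ lay above VZ in all libraries, yet OSVZ minus VZ did not pass (0.85 ± 0.31, adjusted p = 0.0608), and CP overlapped each of the other layers. HAPLN1, a link protein that ties lecticans to hyaluronan, had 0.312, 0.378 and 0.327 scaled FPKM in CP and 0.131, 0.548 and 1.29 in OSVZ. ISVZ had 0.405, 1.08 and 0.630, and VZ 1.68, 2.50 and 2.01. Its VZ libraries were above the rest. Outside VZ it reached 1 scaled FPKM only in OSVZ 3 and ISVZ 2 and so passed the filter through VZ. Its differences are therefore a description and not a test. They were -0.94 ± 0.24 for OSVZ minus VZ and -0.59 ± 0.20 for CP against the germinal layers, the latter -0.29 after quantile normalisation. HAPLN2, HAPLN3 and HAPLN4 were below the filter, at most 0.467 scaled FPKM.

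LUM, lumican, a keratan sulphate proteoglycan that binds fibrillar collagen, had the largest difference in favour of CP of the 42 genes. It had 12.9, 17.0 and 13.8 scaled FPKM in CP and 0.740, 0.521 and 0.0730 in OSVZ. ISVZ had 0.191, 0.183 and 0.734, and VZ 1.27, 4.51 and 0.905. All CP libraries were above all others, and VZ 2 was the highest of the rest. Outside CP it reached 1 scaled FPKM only in VZ 1 and VZ 2 and so passed the filter through CP. Its differences were 3.13 ± 0.28 for CP against the germinal layers and 3.45 ± 0.35 for CP minus OSVZ. Both are a description and not a test, and the first ranged from 3.02 to 4.38 over the alternatives. OSVZ minus VZ was -1.02 ± 0.35 (adjusted p = 0.0479), with every OSVZ library below every VZ library. The difference was negative in every alternative (-2.05 to -0.43), but the call was lost in 13 of 20 of them (adjusted p up to 0.449), among them without any 1 of the CP, OSVZ and ISVZ libraries (0.0520 to 0.151) and without VZ 2 (0.144). Meningeal and fibroblast markers were lowest in CP, where LUM was highest, by the sums given above, with SLC6A13 and TWIST1 not found, FOXC2 listed at 0 in 2 of the 3 CP libraries, and the other markers found under 1 scaled FPKM in each CP library. DCN, decorin, the related proteoglycan that overlaps LUM, was below the filter, with 0.598, 0.696 and 0.0417 scaled FPKM in CP and at most 0.246 elsewhere. The fibril-forming collagens COL1A1, COL1A2 and COL3A1 were at most 1.75 scaled FPKM in CP. Only 3 of the 7 meningeal and fibroblast markers found passed the filter, and the part of such cells in the LUM difference was not tested.

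Of the fibulins and fibronectin, 3 of 5 genes were tested. FBLN1, a secreted glycoprotein that binds fibronectin and laminin, had 6.54, 6.84 and 6.65 scaled FPKM in CP and 7.97, 6.87 and 8.22 in OSVZ. ISVZ had 6.99, 4.55 and 5.98, and VZ 4.32, 3.83 and 5.09. It was the only 1 of the 42 genes that was higher in OSVZ than in VZ by test (0.69 ± 0.14, adjusted p = 0.00441), with no overlap of the libraries. CP against the germinal layers did not pass (0.17 ± 0.12, adjusted p = 0.230). The OSVZ call was lost without VZ 1 and VZ 2 together (adjusted p = 0.148). FBLN2, a fibulin of basement membranes, ran the other way, with 0.0978, 0.0137 and 0.0224 scaled FPKM in CP and 0.249, 0.602 and 0.753 in OSVZ, 0.986, 0.730 and 0.495 in ISVZ and 1.45, 2.47 and 2.27 in VZ, and passed the filter only through VZ, so no test is given for it. FN1, fibronectin, a ligand of alpha 5 and alpha V integrins, had 6.59, 4.76 and 4.52 scaled FPKM in CP and 8.69, 7.51 and 11.2 in OSVZ. ISVZ had 10.1, 8.06 and 17.4, and VZ 12.4, 9.74 and 20.8. CP was below all germinal libraries, at -0.97 ± 0.24 (adjusted p = 0.00559), while OSVZ, ISVZ and VZ overlapped and OSVZ minus VZ did not pass (-0.55 ± 0.29, adjusted p = 0.197).

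The subunits of known heterodimers are set side by side here. FPKM is scaled for gene length, but whether levels of different genes can be compared in these libraries was not tested. For alpha 6 beta 1, ITGA6 averaged 1.07 ± 0.320 in CP, 3.81 ± 1.72 in OSVZ, 5.79 ± 0.656 in ISVZ and 14.6 ± 2.87 in VZ (scaled FPKM, mean ± SD, n = 3), and ITGB1 averaged 23.2 ± 2.61 in CP, 52.8 ± 2.52 in OSVZ, 69.3 ± 9.46 in ISVZ and 91.6 ± 6.10 in VZ. ITGB1 exceeded ITGA6 in each of the 12 libraries. For alpha V, ITGAV averaged 1.94 ± 0.278 in CP, 3.71 ± 0.812 in OSVZ, 3.86 ± 0.477 in ISVZ and 7.22 ± 1.18 in VZ, ITGB5 0.223 ± 0.0848 in CP, 1.77 ± 0.737 in OSVZ, 2.29 ± 0.334 in ISVZ and 9.86 ± 2.71 in VZ and ITGB8 1.27 ± 0.324 in CP, 4.76 ± 1.01 in OSVZ, 5.84 ± 1.15 in ISVZ and 11.2 ± 0.933 in VZ. ITGB5 had a lower mean than ITGAV in CP, OSVZ and ISVZ and a higher one in VZ, with its reads uncertainly divided from those of UMPS, as given above.

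The 2 genes that match by name only went opposite ways. ITGB1BP1 had 15.1, 18.5 and 14.3 scaled FPKM in CP and 8.75, 10.1 and 9.92 in OSVZ, 8.52, 10.4 and 9.78 in ISVZ and 7.93, 8.69 and 8.27 in VZ, with CP above all germinal libraries (0.74 ± 0.09, adjusted p = 6.04e-05), and its interval overlaps CPSF3, at a mean of 32.0 scaled FPKM. ITGB3BP had 0.711, 0.660 and 1.12 scaled FPKM in CP and 2.68, 3.44 and 2.14 in OSVZ, 3.58, 4.34 and 4.14 in ISVZ and 5.60, 4.73 and 4.39 in VZ, with CP below them (-1.40 ± 0.13, adjusted p = 5.28e-06), and its interval overlaps a ribosomal protein copy, RPL6li276, at a mean of 99.8 scaled FPKM.

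The 52 genes below the filter were mostly under 1 scaled FPKM throughout. The highest were COL2A1 (at most 3.90 scaled FPKM in any library), COL8A2 (2.59), ITGA3 (2.43), NID2 (1.94), LAMA2 (1.84), FBLN7 (1.48), COL6A1 (1.14), COL27A1 (1.13) and ITGB4 (1.10), and the other 43 stayed under 1 in all libraries. COL6A1, a partner chain of COL6A2, averaged 0.538 in CP, 0.760 in OSVZ, 0.676 in ISVZ and 0.817 in VZ.

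Genes that work with this matrix were read from 6 lists, and their counts are read beside the shares of all tested genes, 28.7% lower and 24.0% higher in CP than in the germinal layers and 16.2% lower and 11.7% higher in OSVZ than in VZ. Of 13 tested genes of collagen synthesis and crosslinking (18 listed), 11 were lower in CP than in the germinal layers and 1 higher, and 10 were lower in OSVZ than in VZ and 0 higher. SERPINH1, the collagen chaperone HSP47, averaged 5.75 ± 0.973 in CP, 14.9 ± 2.75 in OSVZ, 18.6 ± 4.99 in ISVZ and 40.9 ± 5.84 in VZ (scaled FPKM, SD, n = 3), with -1.79 ± 0.16 (adjusted p = 5.25e-06) for CP against the germinal layers, and P4HA1, a collagen prolyl hydroxylase subunit, differed by -0.83 ± 0.11 (adjusted p = 7.65e-05). P3H1, a prolyl 3-hydroxylase, was the 1 higher in CP (0.48 ± 0.15, adjusted p = 0.0203). Of 12 tested integrin adaptors and activators (14 listed), 8 were lower and 2 higher in CP. TLN1 and TLN2, the talins that activate integrins, went opposite ways, at -1.22 ± 0.14 (adjusted p = 3.45e-05) and 1.14 ± 0.13 (adjusted p = 3.10e-05). The parvins PARVA and PARVB did so too, at -1.19 ± 0.14 (adjusted p = 3.83e-05) and 1.05 ± 0.25 (adjusted p = 0.00380).

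Of 12 tested matrix proteases and inhibitors (18 listed), 7 were lower and 2 higher in CP (28.7% and 24.0% of all tested genes), and 8 were lower and 2 higher in OSVZ than in VZ (16.2% and 11.7% of all). MMP14, a membrane-bound collagenase, averaged 0.806 ± 0.234 in CP, 6.51 ± 0.172 in OSVZ, 9.49 ± 1.56 in ISVZ and 14.1 ± 1.21 in VZ, with -2.56 ± 0.11 (adjusted p = 3.58e-08) for CP against the germinal layers, and the inhibitor TIMP3 was lower too, at -1.77 ± 0.21 (adjusted p = 3.79e-05). MMP16 and MMP24, other membrane-bound metalloproteases, were higher in CP, at 1.06 ± 0.19 (adjusted p = 0.000644) and 1.55 ± 0.18 (adjusted p = 3.44e-05). Of 13 tested surface receptors and heparan sulphate proteoglycans (17 listed), 8 were lower and 1 higher in CP. SDC2, a syndecan, differed by -2.91 ± 0.17 (adjusted p = 2.06e-07), and ADGRG1, a collagen III receptor whose loss disturbs human cortical folding, by -1.65 ± 0.11 (adjusted p = 6.44e-07). ADGRG1 averaged 6.52 ± 0.990 in CP, 20.5 ± 1.56 in OSVZ, 21.8 ± 2.59 in ISVZ and 25.8 ± 4.17 in VZ, and OSVZ minus VZ did not pass (-0.30 ± 0.14, adjusted p = 0.128).

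Of 7 tested tenascins, hyaluronan genes and related proteoglycans (15 listed), 4 were lower and 2 higher in CP. TNC, tenascin C of radial glia, averaged 2.01 ± 0.518 in CP, 23.4 ± 3.09 in OSVZ, 37.3 ± 11.0 in ISVZ and 92.4 ± 23.9 in VZ, with -3.87 ± 0.19 (adjusted p = 7.95e-08) for CP against the germinal layers, the most negative value in the 6 lists. TNR, tenascin R, was higher in CP (1.26 ± 0.32, adjusted p = 0.00619), as was the hyaluronan synthase HAS3 (0.83 ± 0.18, adjusted p = 0.00205). Of 13 tested matricellular and other matrix proteins (23 listed), 7 were lower in CP and 0 higher, among them SPARC, a collagen-binding protein (-1.65 ± 0.22, adjusted p = 8.25e-05). VTN, vitronectin, was lower in CP (-0.53 ± 0.17, adjusted p = 0.0188) and higher in OSVZ than in VZ (0.71 ± 0.20, adjusted p = 0.0229).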

How the data were processed

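The measurements are gene-level FPKM values in 12 tables, 1 for each library, which the authors deposited with a lower and an upper bound for every value. The submitters' processing notes name the aligner HISAT2 and the quantifier Cufflinks. Versions, genome build, annotation and strandedness were not stated in any source at hand, and where genes overlap (19 of the 42 tested genes overlap another named gene) their reads may have been divided between them. A table lists 81792 entries under 81418 gene identifiers. For 360 identifiers with several entries the values were added up, and 4 identifiers marked as failed were removed.

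Each library was divided by its median ratio to the geometric mean over 10200 genes that reached 1 FPKM everywhere. Read counts were not used, so depth is unknown and no counting interval is given. Genes at 1 or more scaled FPKM in at least 3 libraries entered limma 3.58.1 (R 4.3.3) as log2(scaled FPKM + 1), where the pseudocount of 1 understates differences of low genes. The linear model had 4 layers of 3 libraries and 8 residual degrees of freedom, with empirical Bayes and an intensity trend. Tests were two-sided, Benjamini-Hochberg adjustment ran over all 14101 genes, and the threshold was 0.05. The model code was tested on simulated data.

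Genes were named by a rule: in each of the 5 contrasts, up to 6 passing genes at either end, then the 2 most abundant tested genes of each role, neighbouring genes, and subunits of known integrin pairs. LAMA1, LAMC3, COL11A1, COL12A1, COL9A2, FBLN2, ITGB3BP and the named genes of the 6 lists of matrix-related genes fall outside it and were chosen after their values were seen. The genes and lists were chosen with earlier results of these data known. Alternatives were FPKM as deposited, quantile normalisation, equal totals, a pseudocount of 0.1, no filter, a filter of 5, leaving out each library, leaving out VZ 1 and VZ 2, and a replicate block. An item of a marker list is not reported here, and the sum of that list leaves it out.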

Additional observations from a re-analysis of the deposited data

How the results depend on the processing

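Quantile normalisation ended the CP against germinal call of LAMA4 (adjusted p = 0.151). It also ended that of COL6A2, which passed the filter through the germinal layers, and of COL4A6, COL11A1 and HAPLN1, which passed it through VZ. Across 3980 values recomputed under the alternatives, 0 changed direction with a call, 163 lost their call and 34 gained one. A filter of 5 left 18 of the genes to test and called 15 in the F test (57.3% of all genes at that filter), 15 in CP against the germinal layers (57.6%), 10 in CP minus OSVZ (37.9%), 11 in OSVZ minus VZ (31.7%) and 9 in ISVZ minus VZ (8.13%). Without VZ 1 and VZ 2 together, 11 genes were called in OSVZ minus VZ (8.57% of all) and 2 in ISVZ minus VZ (0.519%). Leaving out 1 library at a time gave 27 to 32 called genes in the F test (45.3% to 52.2% of all). It gave 26 to 30 in CP against the germinal layers (44.5% to 53.7%) and 15 to 19 in CP minus OSVZ (22.1% to 31.4%). OSVZ minus VZ had 18 to 25 (18.4% to 28.5%), OSVZ minus ISVZ 0 (0.0142% to 3.94%) and ISVZ minus VZ 7 to 19 (2.81% to 9.90%).

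Over all tested genes, leaving out 1 library gave 2 to 552 calls in OSVZ minus ISVZ (85 with all libraries), 389 to 1384 in ISVZ minus VZ (1229 with all) and 2558 to 3983 in OSVZ minus VZ (3935 with all). OSVZ minus ISVZ gave 54 calls with FPKM as deposited, 231 after quantile normalisation, 38 with equal totals, 19 with a pseudocount of 0.1, 8 with no filter, 299 at a minimum of 5 and 21 when VZ 1 and VZ 2 were left out. ISVZ minus VZ gave 787 with no filter, 715 at a minimum of 5 and 71 when VZ 1 and VZ 2 were left out, and OSVZ minus VZ gave 1171 without those 2 libraries. Quantile normalisation gave 363 higher and 832 lower calls in ISVZ minus VZ, beside 217 higher and 1012 lower. The cause of these shifts was not tested, beyond the fewer genes and libraries that filters and left-out libraries leave.

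Samples share replicate numbers across layers, but the labels do not say what a number stands for. Of 18 pairs of same-numbered libraries, 16 had correlated deviations from their layer means over 0.1 (0.0629 to 0.425), and all 12 libraries correlated best with their own number, a hint from the data and not from the design. With a replicate block, 31 of the 42 genes passed the F test (57.3% of all genes in that fit), 31 passed in CP against the germinal layers (56.6%), 20 in CP minus OSVZ (35.5%), 25 in OSVZ minus VZ (31.9%), 0 in OSVZ minus ISVZ (1.46%) and 19 in ISVZ minus VZ (11.3%), and OSVZ minus ISVZ over all genes gave 206 calls.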

Other observations

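VZ 2 was the highest of the 12 libraries for 20 of the 42 tested genes, 47.6%, and for 14.3% of all 14101 tested genes. It was at least 2-fold above the mean of VZ 1 and VZ 3 for 7 of the 42, 16.7%, and for 3.08% of all tested genes. COL3A1 was 5.47-fold above that mean, LUM 4.14-fold and COL18A1 4.05-fold.

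COL9A2 was lowest in replicate 1 of every layer, at 0.222 to 0.431 scaled FPKM in the 4 replicate 1 libraries and 1.28 to 6.77 in the other 8. Of all tested genes, 80, or 0.567%, had the 4 replicate 1 libraries below the other 8, and 149, or 1.06%, had the libraries of any 1 replicate number below the rest. The COL9A2 interval overlaps ZMPSTE24, at a mean of 7.67 scaled FPKM.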
